A study of Mus musculus and Homo sapiens with 22 samples.

Results

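The transcripts compared were those of 15719 protein-coding genes that carry the same symbol in human and mouse, out of 19702 human and 21866 mouse protein-coding genes with an annotated coding transcript. A gene was included when its human symbol equals the mouse symbol in capitals and each annotation holds a single protein-coding gene of that name, so genes renamed between the species, such as most zinc finger genes, were left out. N6-methyladenosine (m6A) was mapped in both species by miCLIP2, in which an anti-m6A antibody is cross-linked to poly(A)+ RNA by UV light and the cross-linked position is read from where the cDNA ends. HEK293T is a human embryonic kidney line that carries the SV40 large T antigen, and mESC are mouse embryonic stem cells of WT genotype, grown with serum and LIF and taken, with their Mettl3 KO counterpart, from an earlier publication. The HEK293T sites came from 4 replicates and the mESC sites from 3, pooled by the authors into a single list for each cell type. The lists therefore allow no test between the cells: shares are given with 95% Wilson intervals, which cover counting error only, and the files give no read depth per site. Species, cell type, number of replicates and rounds of poly(A) selection (more for HEK293T than for mESC in the study's methods) all differ between the lists and cannot be told apart. RNA-seq was available for mESC, with 3 WT and 3 Mettl3 KO libraries of 22746733 to 27254245 reads in genes; HEK293T expression was not analysed here.

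m6A is written into nascent mRNA by a nuclear complex around METTL3 and METTL14, mostly at adenosines of the DRACH motif (D is A, G or T, R is A or G, and H is A, C or T). It is removed by FTO and ALKBH5, and YTH-domain proteins bind it and shorten the life of the transcript or alter its splicing and translation. Methylated adenosines are known to gather near stop codons and in long internal exons, and many of them have been found in transcripts of developmental regulators.

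All 9 mESC markers examined, among them Pou5f1 and Nanog, lay above 75 TPM (length-corrected expression scaled to an equal library total, from gene counts and exon length) in every WT library. Of 18 fibroblast markers, Fn1 with 646 TPM and Vim with 63.1 TPM made up most of the signal, while the defining collagens Col1a1, Col1a2 and Col3a1 were below 1 TPM. Mettl3 itself was counted 560, 698 and 612 times in WT and 462, 669 and 457 times in KO libraries, a log2 fold change of -0.50 with an SE of 0.14 and an adjusted p of 0.0134 in edgeR (0.00281 with the replicate number as a block). The gene-level count does not show which exons are missing and so does not check the KO label.

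The sites of the same transcript position in the 2 species can be set side by side without converting coordinates. The 21 nt around a site were searched along the longest coding transcript of the same-symbol gene, and the best unique match with an A in the centre and no more than 3 mismatches was called the counterpart. The following 8 windows, each shown 5′ to 3′ in the sense of the transcript with the pentamer of the methylated A in capitals, come from genes on which the results below turn. The pairs were chosen because both adenosines were listed as m6A sites, taking the best-scored such pair of each gene. They do not show how often positions were shared. Of the mouse counterparts of HEK293T sites, 1 of 16 was listed in SPEN, 1 of 12 in HPS6 and 1 of 5 in TBC1D16. The counts were 1 of 2 in MGA, 2 of 10 in RHOB and 5 of 9 in KMT2D. DDIT4 had 4 of 5 listed and TRIM27 4 of 4. Starting from mESC sites, 1 of 15 was listed in MGA and 5 of 21 in KMT2D. TRIM27, a RING finger ubiquitin ligase, shows a window with no change, KMT2D, MGA, HPS6 and TBC1D16 are genes with very unequal site numbers, and DDIT4 and RHOB show sites in the 3' UTR. SPEN carries the most sites of all.
TRIM27 human, CDS, GRCh38 chr6:28904452-28904472, minus strand: agccaagtGGACCataggtgt
Trim27 mouse, CDS, GRCm38 chr13:21192223-21192243, plus strand: agccaagtGGACCataggtgt
SPEN human, CDS, GRCh38 chr1:15929424-15929444, plus strand: agccccaaAGACTgtcaggag
Spen mouse, CDS, GRCm38 chr4:141478063-141478083, minus strand: agccccaaAGACTgccaggat
KMT2D human, CDS, GRCh38 chr12:49031483-49031503, minus strand: aggtgaatGGACAggtggtgc
Kmt2d mouse, CDS, GRCm38 chr15:98843903-98843923, minus strand: aggtgaacGGACAggtggtac
MGA human, CDS, GRCh38 chr15:41767147-41767167, plus strand: ggtcagttGGACAcaaaatga
Mga mouse, CDS, GRCm38 chr2:119964832-119964852, plus strand: ggtcaattGGACAcaaaatga
HPS6 human, CDS, GRCh38 chr10:102067740-102067760, plus strand: ccatatgaGGACAtcctatgg
Hps6 mouse, CDS, GRCm38 chr19:46005888-46005908, plus strand: acctatgaGGACAtcttatgg
TBC1D16 human, CDS, GRCh38 chr17:80010243-80010263, minus strand: tttgactcAGACTcagacacc
Tbc1d16 mouse, CDS, GRCm38 chr11:119208854-119208874, minus strand: tttgactcGGACTctgacgcc
DDIT4 human, 3' UTR, GRCh38 chr10:72275179-72275199, plus strand: ggagtgttGAACTtcaacctg
Ddit4 mouse, 3' UTR, GRCm38 chr10:59950525-59950545, minus strand: agagtgttGAACTacatcctg
RHOB human, 3' UTR, GRCh38 chr2:20448644-20448664, plus strand: ccaagcatGAACAggacttga
Rhob mouse, 3' UTR, GRCm38 chr12:8498430-8498450, minus strand: ccaagcatGAACTggacttgg
The pentamer was the same in 6 of these 8 pairs. It changed by A9G in TBC1D16 and by A13T in RHOB, with positions counted from the 5′ end of the window, the human base first and the mouse base last, and both forms are DRACH.

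A further 4 windows were listed in the cells of only 1 species although each gene had sites in both lists. In HSPD1, the mitochondrial chaperonin HSP60, and in GPBP1 the pentamer was kept. In MTMR14 and FBXO30 it was DRACH only on the side that was listed.
HSPD1 human, 3' UTR, GRCh38 chr2:197487003-197487023, minus strand, listed: ttattaatGAACTgtgacagg
Hspd1 mouse, 3' UTR, GRCm38 chr1:55078245-55078265, minus strand, not listed: ttatcaatGAACTgtgacagg
GPBP1 human, 3' UTR, GRCh38 chr5:57262954-57262974, plus strand, not listed: aggaatgaGGACTtgggttgg
Gpbp1 mouse, 3' UTR, GRCm38 chr13:111426270-111426290, minus strand, listed: agaaatgaGGACTttggttga
MTMR14 human, 3' UTR, GRCh38 chr3:9702228-9702248, plus strand, listed: aactctcaGAACTgtgtgggg
Mtmr14 mouse, 3' UTR, GRCm38 chr6:113281030-113281050, plus strand, not listed: aactctcaGAATTgtgttgga
FBXO30 human, CDS, GRCh38 chr6:145806361-145806381, minus strand, not listed: cattgtgtGAATTgtgtcagt
Fbxo30 mouse, CDS, GRCm38 chr10:11289563-11289583, plus strand, listed: cactgtatGAACTgtgtcagt
The human-to-mouse change in the pentamer was C12T in MTMR14 and T12C in FBXO30, so the same C and T are exchanged after the methylated A in opposite directions.

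The same-symbol genes held 30380 of the 36556 HEK293T sites and 22929 of the 25456 mESC sites. Of these genes, 4187 (26.6%) had at least 1 exonic site in both lists, 2069 (13.2%) in HEK293T only, 1774 (11.3%) in mESC only and 7689 (48.9%) in neither. A gene with a HEK293T site had an mESC site in 66.9% of cases (65.8 to 68.1%, 4187 of 6256 genes). Among genes without a HEK293T site the share was 18.7% (17.97 to 19.5%). In the other direction, 70.2% (69.1 to 71.4%, n = 5961) of the genes with an mESC site had a HEK293T site, against 21.2% (20.4 to 22.0%) of those without.

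Expression in mESC went with the class. The median WT TPM was 28.6 for genes with sites in both, 24.7 for mESC only, 4.42 for HEK293T only and 0.306 for neither. At least 1 TPM was reached by 99.9% of the genes with mESC sites but by 73.3% of the genes with HEK293T sites only. Of the genes under 1 TPM that had a HEK293T site, 0.718% (0.280 to 1.83%) also had an mESC site. The share was 21.1% (18.2 to 24.3%) from 1 to 5 TPM, 72.5% (70.5 to 74.5%) from 5 to 20 TPM, 85.9% (84.5 to 87.2%) from 20 to 100 TPM and 82.3% (79.2 to 85.1%) above. Genes without a HEK293T site followed the same order at a lower level, with 6.51% at 1 to 5 TPM, 39.3% at 5 to 20 TPM and 60.8% at 20 to 100 TPM. The intervals of genes with and without a HEK293T site did not overlap in any of the 5 expression ranges.

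**Figure D1:**
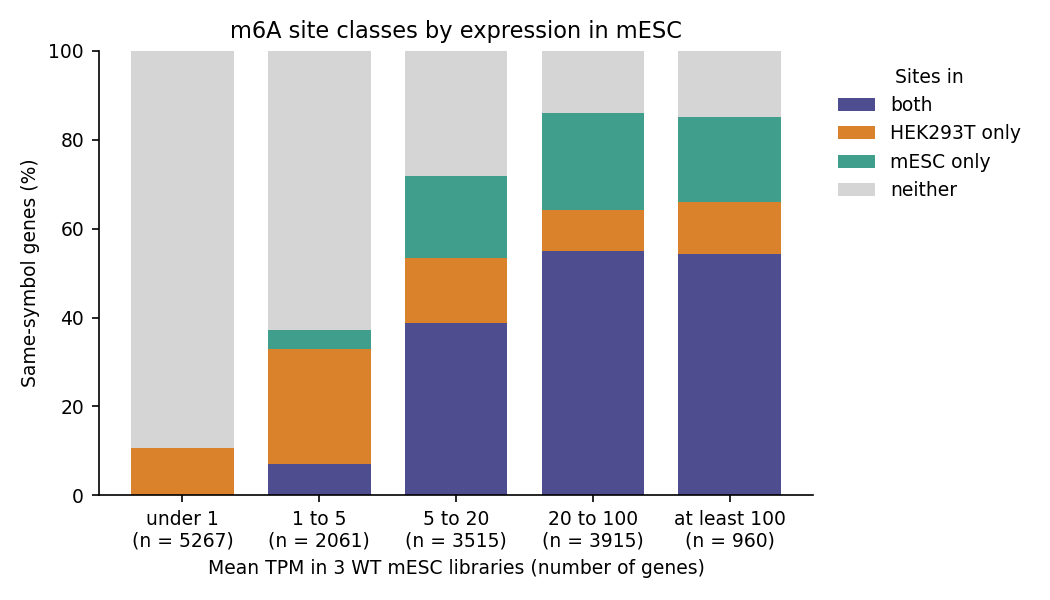
Share of same-symbol genes (y axis, %) with m6A sites in both lists, in HEK293T only, in mESC only or in neither, by mean TPM in 3 WT mESC libraries (x axis, 5 ranges, number of genes below each bar). Genes with sites in both rise from 0.0759% of the lowest range to 55.1% at 20 to 100 TPM, while HEK293T-only genes are most frequent at 1 to 5 TPM with 26.0%.

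Genes with more sites in the cells of 1 species were listed more often in those of the other. Among genes of at least 20 TPM, an mESC site was present in 69.9% (66.5 to 73.2%) of those with 1 HEK293T site and in 98.0% (95.9 to 99.02%) of those with 10 or more. For genes with 1 mESC site the share with a HEK293T site was 57.1% (53.7 to 60.4%), and for 10 or more it was 86.1% (82.2 to 89.3%).

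A part of the HEK293T-only class lies where the mouse files hold nothing at all. Of its 2069 genes, 72 (3.48%) were at 0 counts in all 6 mESC libraries, and 44 genes with HEK293T sites fell into 17 runs of at least 3 neighbouring protein-coding genes that were all at 0 and had no site in mESC or in the mouse heart list (1 µg of RNA). The longest of these by HEK293T genes, at GRCm38 chr16:18052860-18348103, holds 6 genes with 45 HEK293T sites, among them RANBP1, a regulator of nuclear transport, and DGCR8, the partner of the microRNA-processing enzyme DROSHA. MEN1, CELF1 and PPP1CA lie in other such runs and were also listed at 0, as was the splicing factor SRSF1. For these genes a lack of sites and of expression in mESC cannot be told apart from reads that were not assigned, and leaving out every gene at 0 gave a share of 67.7% in place of 66.9%. Shared exons had a smaller part: 36 HEK293T-only genes (1.74%) had an mESC site when positions in exons of several genes were also counted, and 102 mESC-only genes (5.75%) had a HEK293T site. GEMIN4, with 28 HEK293T sites, was such a case, since another gene covers 89.8% of its mouse exon sequence and 8 mESC sites lie there.

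In the 4187 genes with sites in both, HEK293T had 22039 sites and mESC 18035, with medians of 4 and 3 sites per gene. Site numbers were related across genes with a Spearman correlation of 0.373 and a Pearson correlation of 0.414 (n = 4187 genes, which share the 2 lists and are not independent replicates). The median log2 ratio of HEK293T to mESC sites was 0.11, below the log2 ratio of 0.29 of the summed sites, and it was 0 at 20 TPM or more, with scores of at least 0.7, with the 20000 best sites of each list and with DRACH sites alone. HEK293T had more sites in 50.1% of the genes, mESC in 33.8%, and 16.1% had the same number. Per kb of exon the medians were 0.695 and 0.694 sites. The number of mESC sites was weakly related to mouse exon length (Spearman 0.241), and the number of HEK293T sites hardly to human exon length (0.0589). At least 5 sites in each list were found in 929 genes, and at least 10 in 155.

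**Figure D2:**
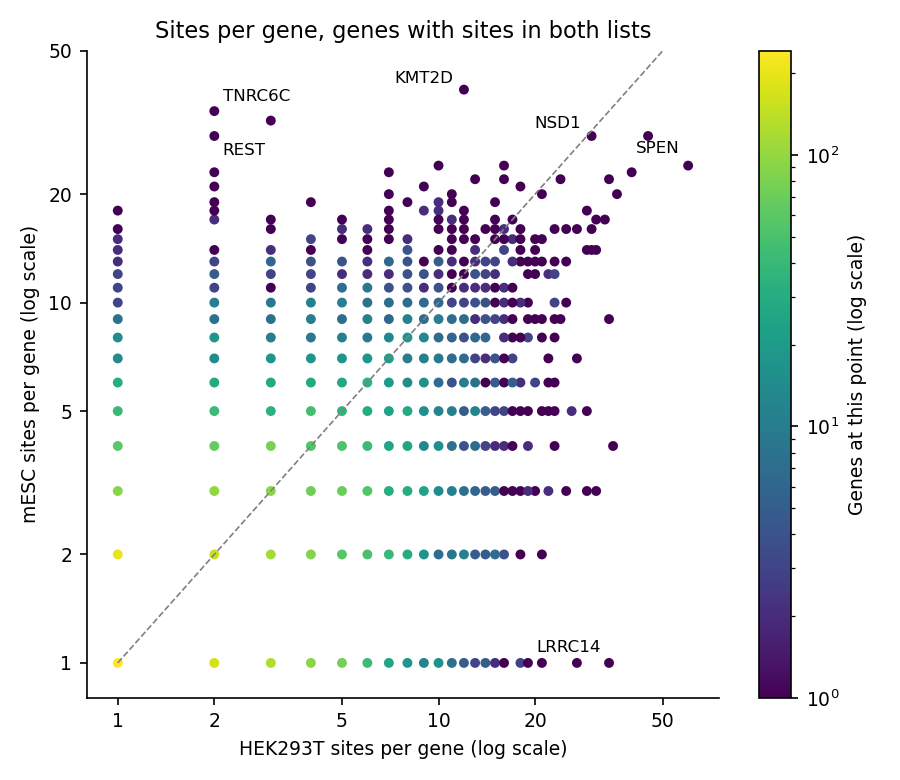
m6A sites per gene in HEK293T (x axis, log scale) and mESC (y axis, log scale) for the 4187 genes with sites in both; each point is a pair of site numbers, its colour the number of genes there (log scale), and the dashed line marks equal numbers. SPEN with 60 and 24 sites is farthest to the right, while LRRC14 lies far below the line and TNRC6C, REST and KMT2D far above it.

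The genes with the most sites summed over both lists were large regulators of the nucleus and cytoskeleton. SPEN, a transcriptional corepressor of the Notch pathway, had 60 sites in HEK293T and 24 in mESC, most of them in the CDS (44 and 20). PLEC, which links intermediate filaments, had 45 and 29 sites. The proliferation antigen MKI67 had 40 and 23. NSD1, a histone H3 lysine methyltransferase, had 30 and 29 sites. SON, a splicing cofactor of nuclear speckles, had 34 and 22. With scores of at least 0.7 PLEC turned to 10 and 18 sites and NSD1 to 13 and 19, whereas SON had 21 and 19. The scores come from the m6Aboost classifier, which was trained on mESC. In genes with sites in both, their median was 0.721 in HEK293T and 0.748 in mESC, so the limit does not cut both lists alike.

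Large excesses in HEK293T apart from SPEN were found in LRRC14 (34 sites against 1), TBC1D16 (35 against 4) and HPS6 (27 against 1). In LRRC14 and TBC1D16 most HEK293T sites lay in the 3' UTR. TBC1D16, a Rab GTPase activator, had 30 in a 3' UTR of 8516 nt against 1 in 4523 nt on the transcripts used. HPS6, a subunit of the BLOC-2 complex of lysosome-related organelles, had 23 of its 27 HEK293T sites in the CDS. WT mESC expression was low in LRRC14, with a TPM of 3.34 ± 0.981 (SD, n = 3), and in HPS6, with 4.89 ± 1.04 (SD, n = 3).

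The largest excess in mESC was found in TNRC6C (34 mESC sites against 2 in HEK293T), MGA (32 against 3), KMT2D (39 against 12), REST (29 against 2) and FAT1 (23 against 2). TNRC6C is a GW182 protein of microRNA silencing, MGA a MAX partner that represses germ-line genes, KMT2D a histone H3 lysine 4 methyltransferase, REST the repressor of neuronal genes and FAT1 a giant cadherin. Here the CDS held most mESC sites, with 27 in TNRC6C, 30 in MGA, 35 in KMT2D, 20 in REST and 22 in FAT1. TPM in mESC ranged from 18.1 for TNRC6C to 169 for REST.

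Among genes with HEK293T sites only, the top 5 were EME2 (32 sites), IRS4 (30), EMILIN3 (28), GEMIN4 (28) and HELZ2 (26), and each was below 1 TPM in WT mESC. For GEMIN4 this TPM does not show low expression, since reads in exons shared with another gene were not counted. All 32 sites of EME2, a partner of the MUS81 endonuclease, lay in a human 3' UTR of 5464 nt, where the mouse transcript has 361 nt. IRS4, an insulin receptor substrate, had 23 sites in the CDS and 7 in the 3' UTR. HELZ2 had 27 sites in the mouse heart list, so the mouse gene carries sites in another tissue. Of the genes at 20 TPM or more, FAM104A and WDR26 had 12 HEK293T sites each, and PPM1F, RPL28 and TRAPPC2L 11 each. All these had no mESC site despite 23.4 to 601 TPM, and 8 of the 11 sites of RPL28 lay outside the transcript used. FAM104A had 2 heart sites and WDR26, a subunit of the CTLH ubiquitin ligase, had 5.

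Among genes with mESC sites only, the top 5 were FGF4 (19 sites), GCNT2 (17), DCLK2 (16), DST (16) and ESRRB (15). GCNT2 is a glycosyltransferase of blood group I antigen. FGF4, the growth factor that primes stem cells for lineage commitment, had 17 of its sites in the 3' UTR. ESRRB, an orphan nuclear receptor of naive pluripotency, had 10 in the 3' UTR and 5 in the CDS. DST, a spectraplakin, had 15 in the CDS and also had 37 heart sites.

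The gene lists showed opposite patterns for factors of different lineages. Of 29 pluripotency genes, 23 had sites in mESC only, 3 in both, 1 in HEK293T only and 2 in neither, with 179 mESC and 19 HEK293T sites in all. NANOG had 7 mESC sites, KLF2 8, KLF5 10, SALL4 11, TRIM71 14 and ESRRB 15, all with no HEK293T site. SOX2 (4 HEK293T and 15 mESC sites), KLF4 (1 and 15) and TBX3 (13 and 14) were listed in both. POU5F1, the OCT4 gene, had 1 mESC site at 772 TPM, while DPPA3 at 61.0 TPM and UTF1 at 91.2 TPM had none.

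HOX genes, which set position along the body axis, were the reverse. Of 39, 30 had sites in HEK293T only, 1 in both, 1 in mESC only and 7 in neither, with 174 HEK293T and 4 mESC sites in all. HOXD13 had 15 HEK293T sites, HOXA11 and HOXB9 12 each, HOXB13 11 and HOXA5 10. Only 7 of the 39 reached 1 TPM in WT mESC. HOXC13, at 11.1 TPM the most expressed, had 5 HEK293T and 3 mESC sites. HOXB13 at 4.0 TPM and HOXB9 at 3.08 TPM had no mESC site. Of 20 kidney development factors, 15 had no site in either list. SIX2 had 7 HEK293T sites, FOXD1 8 and GATA3 1, none with an mESC site, and SALL1, which is also a stem cell factor, had 6 HEK293T and 16 mESC sites.

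**Figure D3:**
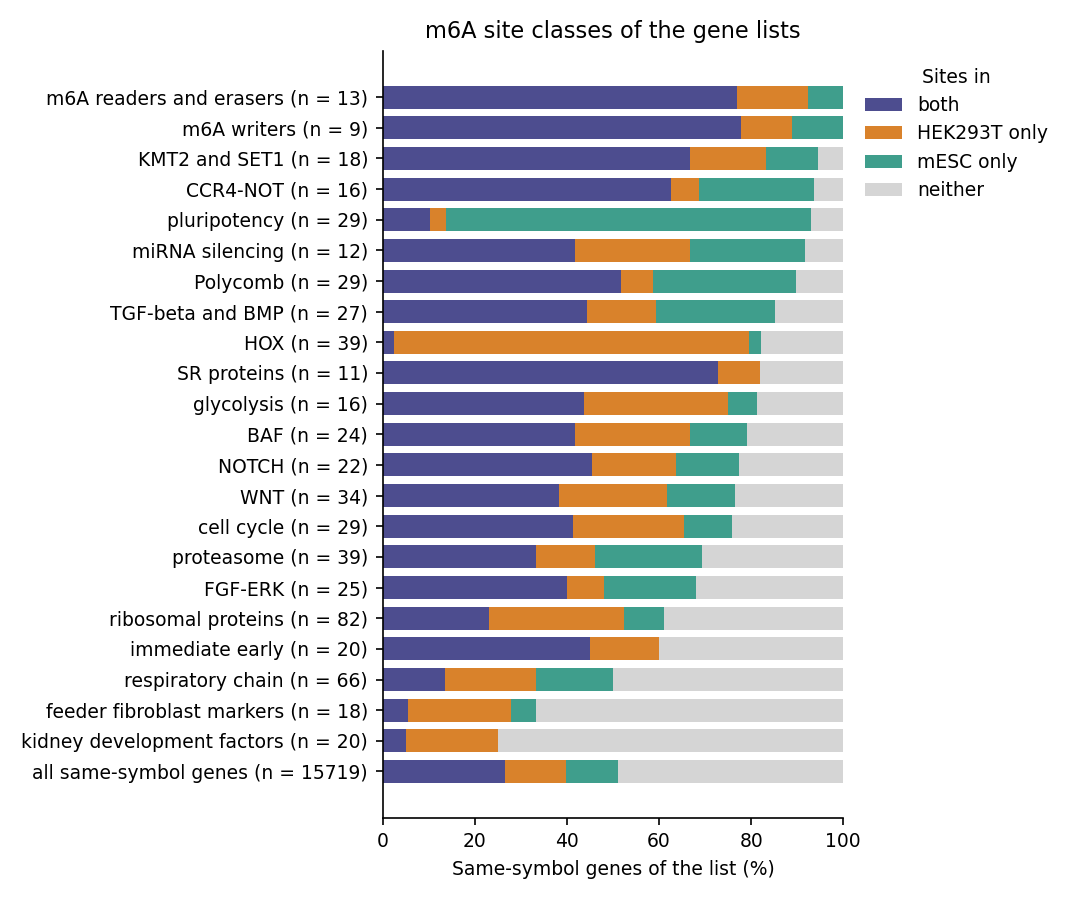
Share of the same-symbol genes of each list (x axis, %) with m6A sites in both lists, in HEK293T only, in mESC only or in neither, with the number of genes beside the name of the list and all 15719 genes in the bottom bar. Pluripotency genes are mostly mESC only (79.3%), HOX genes mostly HEK293T only (76.9%), and the genes of the m6A machinery mostly in both.

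Most genes of the m6A machinery carried sites in both lists, as did 26.6% of all same-symbol genes and 55.1% of those at 20 to 100 TPM. Of 9 writer genes, 7 had sites in both lists. WTAP, which brings the complex to nuclear speckles, had 16 HEK293T and 15 mESC sites, VIRMA 9 and 9, RBM15 12 and 18, RBM15B 23 and 12, and METTL14 2 and 3. METTL3 had 5 HEK293T sites and no mESC site at 14.5 TPM, and CBLL1 1 mESC site only. Of 13 readers and erasers, 10 had sites in both, among them YTHDF1 (8 and 9), YTHDF2 (15 and 9), YTHDF3 (8 and 11) and the demethylase ALKBH5 (8 and 9). FTO, the other demethylase, had 3 mESC sites and no HEK293T site.

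Chromatin regulators and signalling genes were divided, as were genes at large. Sites in both were found in 38.7% of same-symbol genes at 5 to 20 TPM and 55.1% at 20 to 100 TPM. The lists ranged from 38.2% for WNT (median 8.89 TPM) to 66.7% for KMT2 and SET1 (24.5 TPM), with 41.7% for BAF (24.9 TPM). Of 29 Polycomb genes, 15 had sites in both, 9 in mESC only, 2 in HEK293T only and 3 in neither. Within this list BCOR (22 HEK293T and 3 mESC sites), BCORL1 (16 and 2) and CBX2 (23 and 6) had more in HEK293T. SUZ12 (7 mESC sites), CBX7 (8) and PHC1 (8) had no HEK293T site. Of 18 KMT2 and SET1 genes, 12 had sites in both, with 13 and 13 in KMT2B, 2 and 13 in KMT2A and 14 and 10 in HCFC1. SETD1A had 18 HEK293T sites and no mESC site in its own exons, but another gene covers 51.8% of its mouse exons and 10 mESC sites lie in the shared part. Of 24 BAF remodelling genes, 10 had sites in both, with 24 and 22 in ARID1A, the largest subunit of the complex.

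In the WNT list of 34 genes, 13 had sites in both, 8 in HEK293T only, 5 in mESC only and 8 in neither. The Frizzled receptors were split within the family: FZD7 had 17 and 17 sites, FZD5 7 HEK293T and 23 mESC sites and FZD10 4 and 9, while FZD1 (10), FZD2 (11) and FZD8 (10) had HEK293T sites only at 0.438 to 2.17 TPM in mESC. The tumour suppressor APC had 13 mESC sites and none in HEK293T, and AXIN1, its scaffold partner, 12 and 9. Of 22 NOTCH genes, 10 had sites in both, 4 in HEK293T only and 3 in mESC only, and SPEN held 60 of the 144 HEK293T sites of that list. Of 27 TGF-beta and BMP genes, 12 had sites in both, with 21 and 13 in the corepressor SKI, while SKIL had 11 in mESC only. Of 25 FGF-ERK genes, 10 had sites in both, such as GRB2 with 6 and 6 and the feedback inhibitor SPRY2 with 7 and 10.

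Immediate early genes gave 9 in both, 3 in HEK293T only, none in mESC only and 8 in neither of 20. JUN had 25 HEK293T and 3 mESC sites, IER2 18 and 10, and KLF10 10 and 8. MYC had 13 HEK293T sites and no mESC site, at 1.16 TPM in WT mESC. In the microRNA list of 12 genes, 5 had sites in both, and AGO2 had 11 and DROSHA 5 mESC sites with none in HEK293T. Of 16 CCR4-NOT genes, 10 had sites in both, and BTG2 had 5 in each.

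All 82 ribosomal protein genes were above 1 TPM in mESC, with a median of 799 TPM. Of these, 19 (23.2%) had sites in both, 24 in HEK293T only, 7 in mESC only and 32 in neither, with 113 HEK293T and 45 mESC sites. Of all same-symbol genes of at least 100 TPM, 54.4% had sites in both. RPL28 (11 HEK293T sites) and RPL13 (10) had the most sites without an mESC site. Ribosomal protein genes have many processed copies in both genomes, and the authors kept only uniquely mapping miCLIP2 reads. Whether this bears on the sites listed here was not tested. Of 66 respiratory chain genes 9 had sites in both and 33 in neither, and of 39 proteasome genes 13 and 12. Of 16 glycolysis genes 7 had sites in both, and GAPDH at 954 TPM, LDHA and LDHB had HEK293T sites only (1, 3 and 2). Of 11 SR protein genes 8 had sites in both, and of 29 cell cycle genes 12, with 5 and 7 in E2F1. CCNB1 had 7 HEK293T sites and none in mESC at 129 TPM.

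Within genes of at least 20 TPM, where the lists are least limited by mESC expression, the classes still differed in structure. The median mouse transcript was 3064.5 nt long for the 2678 genes with sites in both, 2905 nt for the 1038 mESC-only genes, 1783 nt for the 465 HEK293T-only genes and 1805.5 nt for the 694 genes in neither. DRACH motifs per mouse transcript followed with medians of 60, 58, 34 and 36. A mouse internal exon of at least 400 nt was present in 23.04%, 14.7%, 3.23% and 2.45%. The heart list had a site in 84.4% (83.0 to 85.8%), 64.9% (62.0 to 67.8%), 31.6% (27.6 to 36.0%) and 21.5% (18.6 to 24.7%) of these genes. HEK293T-only genes of this expression lay closer to genes without any site than to mESC-only genes in length, motif number and heart sites. Of them, 45.4% had just 1 HEK293T site, against 18.3% of the genes with sites in both. The limit was set on WT mESC alone, and HEK293T expression was not analysed. The classes thus pass the limit on unlike terms, and why they differ above it was not tested.

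Sites in genes with both lists had almost the same region shares in the 2 species, but not the same density per region. The CDS held 53.3% (52.6 to 53.9%) of the placed HEK293T sites and 52.7% (52.0 to 53.5%) of the mESC sites, the 3' UTR 43.8% (43.1 to 44.5%) and 44.8% (44.03 to 45.5%), and the 5' UTR 2.93% and 2.52%. The transcript region is an input of the m6Aboost classifier, which was trained on mESC, so these shares are partly set by it in both lists. The CDS made up 49.7% of the human and 53.7% of the mouse transcripts used, and the 3' UTR 44.6% and 40.0%. Per kb HEK293T had 1.28 sites in the CDS and 1.18 in the 3' UTR, while mESC had 1.07 and 1.22. Per 100 DRACH motifs HEK293T had 6.49 and 6.41 sites, and mESC 5.18 and 6.17. The last exon held 64.5% and 65.0% of the sites. Long internal exons of at least 400 nt held 18.1% (17.6 to 18.6%) in HEK293T and 20.7% (20.1 to 21.3%) in mESC, a difference larger than the counting error. The window of 200 nt either side of the stop codon held 31.6% and 31.03%.

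Region shares differed for sites of genes listed in cells of only 1 species. The lengths and motif numbers of the regions were not taken into account for these classes, so the shares are not densities. HEK293T-only genes had 5.51% (5.03 to 6.04%) of their sites in the 5' UTR and 8.66% (8.05 to 9.30%) in transcripts with a single exon, against 2.93% and 4.60% (4.33 to 4.90%) for HEK293T sites of genes in both. In mESC-only genes 52.2% (50.8 to 53.6%) of sites lay in the 3' UTR, 71.7% (70.4 to 73.0%) in the last exon and 35.4% (34.0 to 36.8%) within 200 nt of the stop codon, all above the mESC shares of genes in both. The CDS share was lower in both of these classes, at 51.1% for HEK293T only and 45.7% for mESC only, and so was the share in internal exons of at least 400 nt, at 11.2% and 13.6%.

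**Figure D4:**
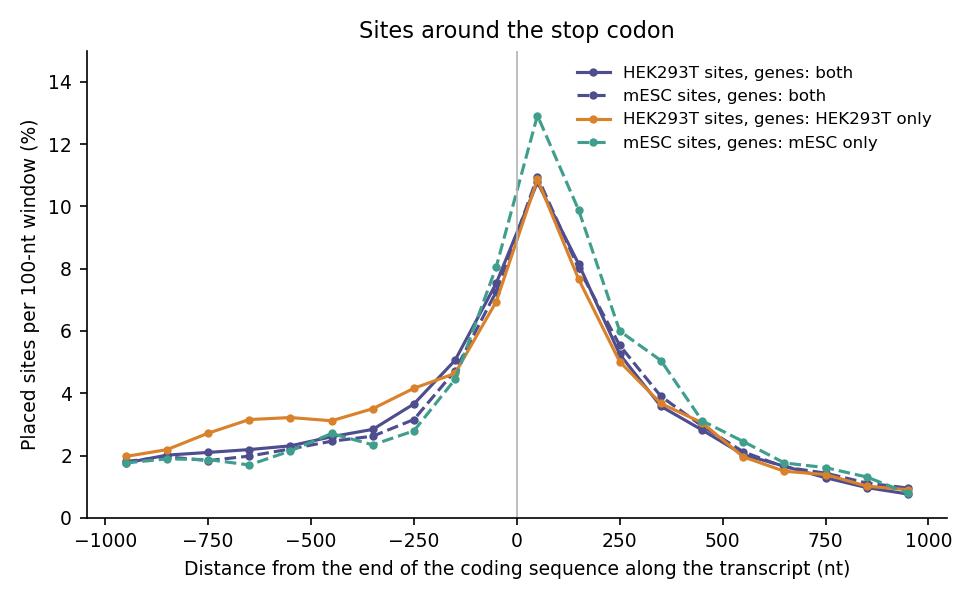
Share of placed sites per 100-nt window (y axis, %) by distance from the end of the coding sequence along the transcript (x axis, nt, negative upstream), for HEK293T (solid) and mESC (dashed) sites of genes with sites in both and for genes of a single list. All 4 lines peak in the first 100 nt downstream, at 10.8% and 10.95% for genes in both, 10.9% for HEK293T only and 12.9% for mESC only.

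The region in which a gene carried its sites was largely shared. Of 1835 genes with at least 3 placed sites in each list, 1346 (73.4%, 71.3 to 75.3%) had most of their sites in the same region in both. Of the 955 genes led by the CDS in HEK293T, 750 (78.5%) were led by the CDS in mESC, whereas of the 764 led by the 3' UTR 118 (15.4%) were. The CDS share per gene had a Spearman correlation of 0.713 between the lists (n = 1835 genes). MKI67 was led by the CDS in both lists, but had 17 of 40 HEK293T sites and 1 of 23 mESC sites in the 3' UTR, which is 2531 nt long in the human and 305 nt in the mouse transcript.

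At single positions, 7530 of 20783 HEK293T sites searched (36.2%) had a counterpart in the mouse transcript, with 56.9% in the CDS and 12.3% in the 3' UTR. Of these counterparts 2778 (36.9%, 35.8 to 38.0%) were listed as mESC sites. Of the counterparts of DRACH adenosines that were not HEK293T sites in the same transcripts, 2.13% (2.05 to 2.22%, n = 115406) were. Starting from mESC, 6184 of 17346 sites (35.7%) had a human counterpart, of which 2781 (45.0%, 43.7 to 46.2%) were HEK293T sites against 2.89% (2.80 to 2.99%) for unlisted DRACH. The sequence around a site is also an input of the classifier, so like sequences receive like scores where both carry a signal. With the motif held at GGACT in both species, 54.9% (52.1 to 57.7%) of the counterparts of HEK293T sites were mESC sites, against 11.1% (10.1 to 12.1%) for GGACT adenosines not listed in HEK293T. The reverse shares were 59.3% (56.4 to 62.1%) and 12.9% (11.9 to 13.9%).

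Keeping the motif went with being listed, a relation partly set by the classifier, which takes the sequence as input. Where the pentamer was the same DRACH, as in the SPEN and KMT2D windows, 45.8% (44.4 to 47.2%) of HEK293T sites had a listed mouse counterpart. Where it changed to another DRACH, as in TBC1D16 and RHOB, 26.7% (24.0 to 29.7%) did. Where the mouse position was no longer DRACH, as in MTMR14, 2.88% (1.89 to 4.36%) did. From mESC to human the shares were 54.1%, 35.5% and 5.12%, the last group holding FBXO30. HSPD1 and GPBP1 show that a kept pentamer was often not listed: this held for 2782 of 5133 such HEK293T sites and 1999 of 4353 such mESC sites.

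The share also followed the m6Aboost score. It was 21.2% (19.3 to 23.1%) for HEK293T sites scored 0.5 to 0.6 and 61.9% (57.0 to 66.5%) for those of at least 0.9, and 28.8% (26.3 to 31.4%) and 63.1% (58.2 to 67.7%) for mESC sites. In the 2778 pairs the scores of both sites had a Spearman correlation of 0.442. Of the pairs 99.8% lay in the same transcript region.

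**Figure D5:**
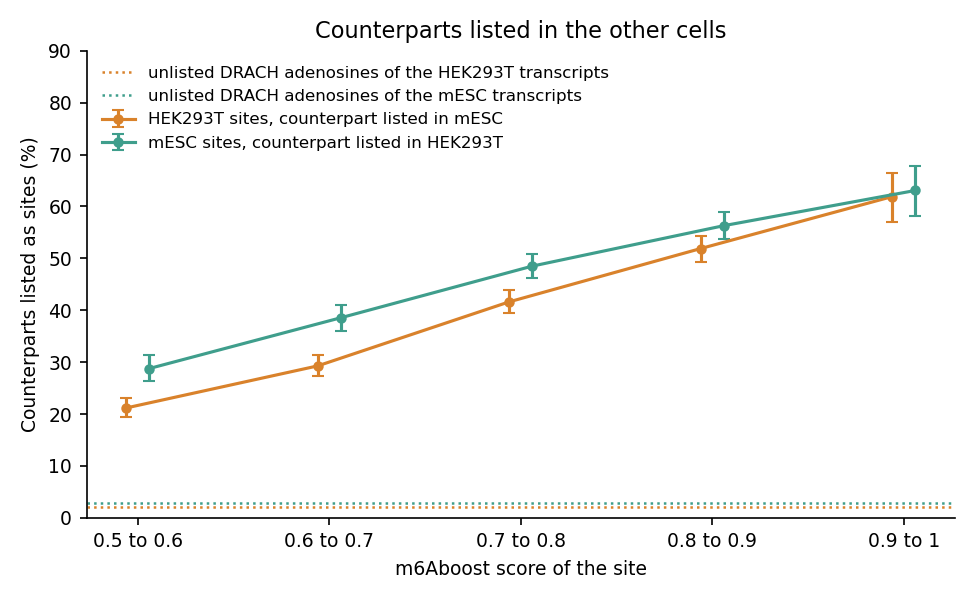
Share of sequence counterparts that are listed as sites in the cells of the other species (y axis, %, points with 95% Wilson intervals) by the m6Aboost score of the site searched from (x axis), for HEK293T sites and mESC sites; dotted lines give the share for DRACH adenosines that are not sites. The shares rise from 21.2% and 28.8% to 61.9% and 63.1%, above dotted lines at 2.13% and 2.89%.

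Sites of HEK293T-only genes had a sequence counterpart about as often as those of genes in both in the CDS and less often in the 3' UTR. A counterpart was found for 58.8% (57.2 to 60.3%) of their CDS sites and 9.28% (8.35 to 10.3%) of their 3' UTR sites, against 56.9% (56.0 to 57.8%) and 12.3% (11.6 to 12.96%), and the same pentamer was kept in 74.9% (73.2 to 76.6%) and 75.7% (74.6 to 76.7%) of the DRACH counterparts. For mESC-only genes the CDS share with a human counterpart was 52.4% (50.3 to 54.5%) against 55.9% (54.9 to 56.9%) in genes of both. The pentamer was kept in 69.8% (67.2 to 72.2%) against 75.5% (74.4 to 76.6%), a gap larger than the counting error.

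Among the genes the study itself names, HIC2 had 16 sites in each list, MIF4GD 10 in HEK293T and 9 in mESC, DDIT4 10 and 9, TRIM27 7 and 8 and CCDC85B 8 and 7. With scores of at least 0.7 HIC2 had 6 HEK293T and 11 mESC sites and MIF4GD 3 and 7. RHOB, a small GTPase, had 15 HEK293T and 4 mESC sites, and CCNT2, a cyclin of the elongation factor P-TEFb, 2 and 12. PALM3 and NANOG had 7 mESC sites each and none in HEK293T. These genes were picked by the study from these libraries and give no independent evidence.

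The 3 WT and 3 Mettl3 KO libraries were then compared by class. Of all 15731 genes tested by edgeR's quasi-likelihood test, 29.7% were called at an adjusted p of at most 0.01, with 17.1% higher and 12.6% lower in KO. Of the 4185 tested genes with sites in both, 1307 (31.2%) were called, 802 higher and 505 lower. Of 1795 HEK293T-only genes 600 (33.4%) were called, 391 higher and 209 lower. Of 1774 mESC-only genes 559 (31.5%) were called, 218 higher and 341 lower, and of 4166 genes in neither 1372 (32.9%), 855 higher and 517 lower. The share called was thus near the background in every class. Over all expression levels mESC-only genes were the only class with more lower than higher genes, a split that turned to 274 higher and 213 lower when libraries were scaled by size alone. The classes differ in WT expression, with median TPM of 28.6 for genes in both, 24.7 for mESC only, 4.42 for HEK293T only and 0.306 for neither. WT is also an arm of this comparison, so direction and class are not independent, and the cause of the split was not tested. Among genes of at least 20 TPM lower calls outnumbered higher ones in every class, with 374 higher and 390 lower for genes in both, 18 and 133 for HEK293T only, 78 and 253 for mESC only and 27 and 207 for neither. All tested genes of this range had 550 higher and 1104 lower calls. The limit was set on the WT libraries, which are also an arm of this comparison. Genes thus pass it through the group where they are high, and the splits above it give no support for a class effect. With the replicate number as a block the lower calls rose to 816 for genes in both, 342 for HEK293T only, 802 for neither and 493 for mESC only, and to 3143 of all genes. The number of called genes rested on single libraries: without KO 1, KO 3 or WT 1 it was 2761, 3109 and 3108 of all genes, against 4669 with all 6.

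The median log2 fold change of a class was compared with that of all genes tested, since scaling by library size alone moved the latter by 0.10 and the share of higher genes among all calls from 57.5% to 71.0%. Relative to all genes, the medians were 0.05 for genes in both, 0.12 for HEK293T only, -0.08 for mESC only and 0.11 for neither. Among genes of at least 20 TPM, whose overall median was -0.16, the medians were -0.05 for genes in both, -0.19 for mESC only, -0.32 for HEK293T only and -0.32 for neither. HEK293T-only genes thus lay near the level of genes in neither list both over all genes and at 20 TPM or more. The limit of 20 TPM was set on the WT libraries of this same comparison, so the medians above it are not free of that selection. Without WT 2 the relative median of genes in both was 0.02, and without the filter on low counts that of genes in neither was 0.22.

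RHOB, with sites in both, rose from 166, 191 and 156 WT counts to 1264, 1183 and 1023 KO counts, and the groups did not overlap. Its log2 fold change was 2.51 with an SE of 0.15 and an adjusted p of 2.97e-06 in edgeR. WTAP rose from 2507, 2960 and 2509 to 7523, 8077 and 8354 counts (log2 fold change 1.33, SE 0.10, adjusted p = 1.28e-05 in edgeR). Of the 9 writer genes 6 (66.7%) were called, against 29.7% of all genes tested, and these 6 were higher in KO. ZC3H13 fell short of the threshold in 5 of 11 alternatives, and 1 gene, METTL3, was called lower with DESeq2, under the block and without KO 2. HPS6, with 1 mESC site, went from 84, 126 and 122 to 330, 354 and 370 counts (log2 fold change 1.41, SE 0.19, adjusted p = 0.000252 in edgeR). Among mESC-only genes, PALM3 fell from 2190, 2705 and 2821 counts to 443, 535 and 614 (log2 fold change -2.54, SE 0.15, adjusted p = 2.97e-06 in edgeR). DCLK2, a microtubule-binding kinase, had 2696, 3630 and 1943 against 623, 977 and 725 (log2 fold change -2.08, SE 0.17). KLF2 moved the other way, from 2071, 2857 and 2157 to 8047, 10442 and 7365 counts (log2 fold change 1.61, SE 0.12). Of the 29 pluripotency genes 9 were called, 3 higher and 6 lower, near the 29.7% of all genes tested. The counts were 6 and 8 under the block or without the filter, and 3 and 4 by library size or without KO 3. EMILIN3, listed in HEK293T only, rose from 22, 39 and 25 counts to 84, 203 and 143 (log2 fold change 2.05, SE 0.31). It lay under 1 TPM in WT mESC, where 0.114% of genes had an mESC site, so its lack of a site may be one of detection. Of the 82 ribosomal protein genes 16 (19.5%) were called, fewer than the 29.7% of all genes tested, with 1 higher and 15 lower. Among all genes 17.1% were higher and 12.6% lower. The ribosomal genes had a median of 799 TPM, however, and the 5447 tested genes of at least 20 TPM had 550 higher and 1104 lower calls. More lower than higher calls were thus not particular to this list. The lower calls of the ribosomal genes were 33 under the block, 32 without WT 3, 8 without KO 2 and 5 without KO 3. They were 7 by library size alone, and also without WT 1 or KO 1.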

How the data were processed

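m6A sites were read from 3 lists: HEK293T, WT mESC and, for the heart shares, mouse heart (1 µg of RNA). HEK293T and mESC sites carry the m6Aboost score deposited by the authors, while the score of the heart list, of unstated scale, was not used. They mapped miCLIP2 reads with STAR 2.7.3a, removed duplicates with UMI-tools 1.0.0, called peaks with PureCLIP in each replicate, required a peak in at least 2 replicates and classified peaks at an A. RNA-seq gene counts, made by the authors with STAR 2.6.1b and HTSeq 0.12.4 on the reverse strand (tool versions from the submitters' processing notes), are whole, unnormalised numbers. HTSeq drops reads that lie in exons of several genes. In each library 36.7% to 42.7% of the reads were counted to no gene and left out of library sizes.

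A site was given to a gene when it lay in its exons on the same strand and in no other gene's. Human positions are on GRCh38 with GENCODE 44 and mouse positions on GRCm38 with GENCODE M21, which differ from the authors' releases, and the window sequences were read from these references. Exon lengths were found for 98.1% of 56196 gene IDs. Sites were placed on the transcript with the longest CDS. KO and WT were compared with edgeR 4.0.16 (R 4.3.3; TMM, filterByExpr, quasi-likelihood test, Benjamini-Hochberg adjusted p of at most 0.01 over all genes), with DESeq2 1.42.0 as an alternative. The study describes the mESC samples as biological replicates. Where they do not come from separate cultures, p-values measure technical spread. Same-numbered WT and KO libraries deviated together (correlations 0.122, 0.464 and 0.303), although WT 3 and KO 1 reached 0.110, so a pairing of number 1 is uncertain. The numbers were used to pair the samples in the block fit only. All other calls, SEs and p-values come from the fit without pairing. Both edgeR and the window search were tested on simulated data.

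The genes, lists and tests were chosen with earlier results of these data known. Named are the members of fixed gene lists, genes the study names, the 5 genes with the most sites summed, the 5 with the largest excess in either list, and the 5 with the most sites in only 1 list, for HEK293T also among genes of at least 20 TPM. Single genes singled out in the text beyond these, such as those listed at 0, were chosen after their values were seen. Some genes that this rule names are not reported here. Alternatives were sites scored at least 0.7, the 20000 best sites of each list, DRACH sites, sites in several genes, genes of at least 20 TPM, 2 sites per gene, sites per kb, any coding transcript, other mismatch limits, other normalisations and filters, the replicate block and leaving out each library. Leaving out genes at 0 was added after seeing the data.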

Additional observations from a re-analysis of the deposited data

How the results depend on the processing

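No fold change printed for a named gene changed sign, and the correlation of site numbers stayed positive, but several orders changed. The higher and lower calls among mESC-only genes changed order when libraries were scaled by size alone. The CDS and 3' UTR shares did so in both lists with scores of at least 0.7 and with the 20000 best sites. The shares of genes listed in the other cells did so with the 20000 best sites and at 20 TPM or more. PLEC, NSD1 and MIF4GD turned from more HEK293T to more mESC sites with scores of at least 0.7, and TRIM27 turned the other way. The share of HEK293T-site genes with an mESC site, 66.9%, was 61.7% with sites scored at least 0.7, 65.7% with the 20000 best sites of each list, 85.2% at 20 TPM or more and 58.0% with at least 2 sites per gene. The reverse share of 70.2% was 64.3%, 62.9%, 72.1% and 64.7%, and 71.9% with sites in several genes. The median log2 ratio of site numbers, 0.11, was 0.0095 per kb of exon and 0.193 with sites in several genes. The Spearman correlation of site numbers was 0.294, 0.316 and 0.453 under the score limit, the best sites and the expression limit. Under these 3 and with any coding transcript, the CDS share was 45.9%, 46.5%, 51.0% and 51.6% in HEK293T and 45.6%, 48.9%, 50.2% and 51.6% in mESC, and the 3' UTR share 53.0%, 52.4%, 46.2% and 45.1% against 53.5%, 49.6%, 47.2% and 45.6%, so that higher scores went with more 3' UTR sites in both lists. Listed counterparts from HEK293T were 43.4% with at most 1 mismatch, 33.5% with at most 5, 47.8% with scores of at least 0.7 and 41.5% at 20 TPM or more, and from mESC 52.6%, 40.5% and 53.3% under the first 3. The cause of these shifts was not tested.

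With the replicate block, the paired fit, 6837 genes were called in place of 4669, Mettl3 was called lower (as with DESeq2 and without KO 2), and none of the other genes printed with a fold change lost its call. Leaving out single libraries gave 2761 to 5412 called genes in all, 724 to 1517 for genes in both, 360 to 656 for HEK293T only, 323 to 646 for mESC only and 856 to 1517 for neither, the lowest each time without KO 1. Fewer libraries enter those fits. Scaling by library size gave no reversed median relative to all genes. The lists hold no depth, so a gene or position without a site may lie below detection, and 1 list per cell type leaves the differences between the cells without replicate error.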

Other observations

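Outside the same-symbol genes, 550 human and 475 mouse protein-coding genes carried sites, of which 156 human genes were named ZNF and 144 mouse genes Zfp. These zinc finger genes are largely without same-named partners, and their methylation was not compared here.

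The 17 runs of neighbouring mouse genes at 0 in all 6 libraries held 96 protein-coding genes, 44 of them with HEK293T sites. On GRCm38 chr19:6184388-6355615 the genes PPP2R5B, ATG2A, EHD1 and MEN1 had 27 HEK293T sites, and on chr7:138940730-139269903 the genes DPYSL4, STK32C, LRRC27 and PWWP2B had 28. On chr2:90904740-91045729 KBTBD4 and CELF1 had 11. Such genes were chosen after their values were seen, and why neither reads nor sites are listed there was not tested.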
